A study of Mus musculus with 12 samples.

Results

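The Sox17-Erg samples collected 3 and 7 days after retroviral infection are 4 of the 12 libraries of a study of direct reprogramming, with 2 libraries per time point. They were chosen by their labels alone, and Day 7 was set against Day 3 to describe, across all genes, which programs started and which ended. The cells were murine cardiac fibroblasts from pooled neonatal hearts, selected on the surface protein THY1 (after removal of PECAM1-positive cells where that step was performed), and infected with pMX retroviruses carrying Sox17 and Erg, which the labels call se and iEC. The control samples, labelled PMX, were fibroblasts of the same kind without the pair of factors and were harvested on the same days. All groups grew in EGM2, an endothelial growth medium, so the medium was shared by both arms. The methods name C57BL/6J mice or Tcf21-CreERT2 mice bred with a Rosa26-tdTomato line as the source, and the labels do not say which was used for these libraries. The unsorted cultures hold converted and unconverted cells together, and in such bulk RNA fewer cells of a type and less RNA per cell cannot be told apart.

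Sox17 is an HMG-box transcription factor of arterial endothelium, and Erg is an ETS-family factor that holds endothelial identity. Forced expression of lineage factors is known to start genes of the target cell in a differentiated cell without a pluripotent stage. Dividing cells make ribosomes, transfer RNA synthetases and chaperonins under the control of growth regulators such as Myc, and these programs are lowered when growth slows.

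The counts summed to 19011635 and 24362607 in the Day 3 libraries and to 36835500 and 22757129 in the Day 7 libraries, so that 3 counts, the floor used below, stood for 0.0827 to 0.152 CPM (read counts scaled to a common library total after TMM, the unit of all levels below). Both factors were carried by all 4 libraries. Sox17 stood at 781 and 432 CPM at Day 3 and 999 and 791 CPM at Day 7, and Erg at 46.6 and 25.9 and then 19.4 and 17.1 CPM, and neither change passed the test (adjusted p = 0.368 and 0.497). In the 4 control libraries of the same days Sox17 reached at most 0.416 CPM and Erg at most 2.27 CPM. Of the 26 endothelial markers 24 could be tested, and Gpihbp1 was at or below 3 counts in all 4 libraries. Of the 23 fibroblast markers none was at 0 counts, and their summed level was 14698 and 18830 CPM at Day 3 and 12822 and 15938 CPM at Day 7, against 13410 to 19947 CPM in the control libraries of both days. The endothelial markers summed to 880.2 and 877 CPM at Day 3 and 1289 and 1356 CPM at Day 7, against 636 and 768 CPM at Day 3 and 1043 and 1353 CPM at Day 7 in the control libraries, so this sum was not particular to the Sox17-Erg cells. A sum mostly reflects its most abundant members and does not describe single markers. The paper places Pecam1, Cdh5, Vwf and Tek in a cluster of genes higher in Sox17-Erg samples by Day 7. Markers of other cells were present at lower sums. The macrophage list summed to 312 to 348 CPM at Day 3 and 299.6 to 518 at Day 7, the cardiomyocyte list to 343 to 427 and 375 to 479, the mesothelial list to 215 to 355 and 317 to 424, the pericyte list to 535 to 558 and 331 to 733, the Schwann cell list to 2.80 to 4.86 and 4.52 to 5.36, and the red blood cell list to 0.388 to 0.557 and 1.93 to 2.15. No member of these 6 lists was called in edgeR's test. The DESeq2 Wald test called 1 cardiomyocyte, 1 pericyte and 1 red blood cell gene higher and 1 mesothelial gene lower. Vtn, Hbb-bs and Hbb-bt were at 0 in all 4 libraries. Their part in the results below was not tested.

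From Day 3 to Day 7, 317 of 15506 tested genes rose (2.04%) and 214 fell (1.38%) at an adjusted p under 0.05 in edgeR's quasi-likelihood test with Benjamini-Hochberg adjustment, 3.42% of all tested genes together. The rises were larger than the falls. Among the risen genes the median log2 fold change was 1.34 and 209 changed at least 2-fold, and among the fallen genes the median was -0.73 and 57 changed at least 2-fold. The median over all tested genes was -0.000702. In each of the 531 genes the libraries of the 2 days did not overlap, against 26.6% of all tested genes that were higher and 29.1% that were lower in both Day 7 libraries. Most of the calls lay close to the threshold, since 11 rises and 5 falls passed an adjusted p under 0.01. The counts depended on single libraries. Without Sox17-Erg Day 3 replicate 1 there were 13 rises and 4 falls, without Day 3 replicate 2 there were 20 and 6, without Day 7 replicate 1 there were 406 and 255, and without Day 7 replicate 2 there were 59 and 6. When the 4 Sox17-Erg libraries were fitted alone, without the spread of the other 8, 3 genes rose and 3 fell. All 531 genes kept their direction in each of these 5 fits. The p-values rest on the spread between replicates over all 12 libraries of the fit, which the sources do not say came from separate cultures. A permutation of 2 against 2 libraries cannot give a two-sided exact p below 0.333.

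**Figure D1:**
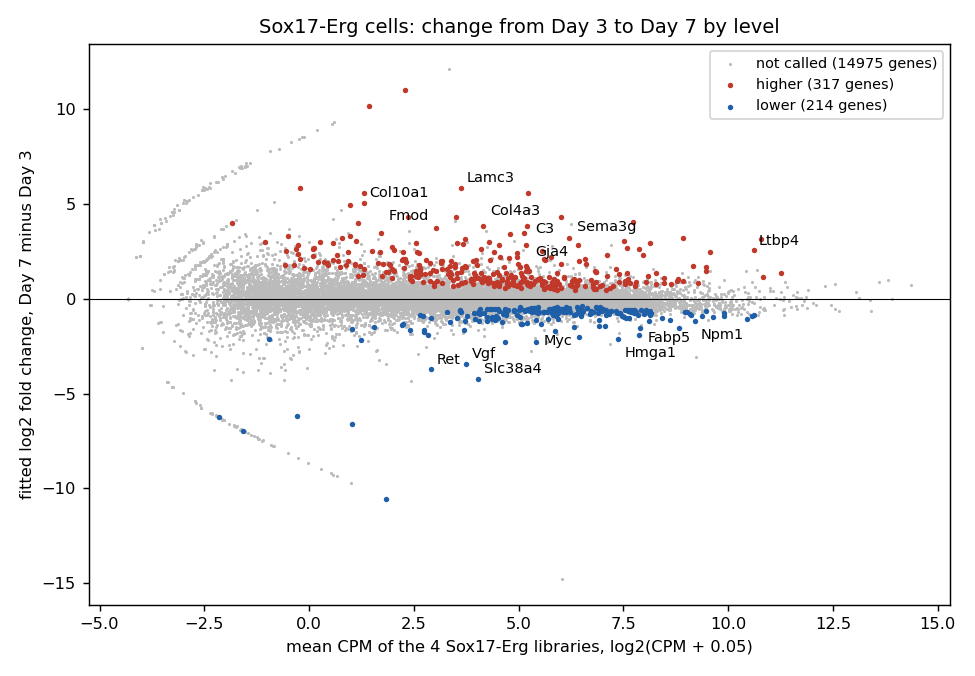
Change from Day 3 to Day 7 in the Sox17-Erg libraries (vertical axis, fitted log2 fold change) against the mean level of the 4 libraries (horizontal axis, log2 CPM with 0.05 added), with one point for each of the 15506 tested genes. The 317 risen genes (red) reach further from 0 than the 214 fallen genes (blue), which lie mostly between 0 and -2, and the arcs of grey points at low levels are genes listed at 0 on one of the days.

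Of the 531 genes, 11 kept their call without any 1 of the 4 Sox17-Erg libraries, and each other call was lost without at least 1 of them. The 8 that rose were Col4a3, Col4a4, Ltbp4, Fmod, Cx3cl1, Adcy5, Olfm2 and Smoc1, and the 3 that fell were Slc38a4, Hmga1b and Gm6166. The counts of Hmga1b and of the processed pseudogene Gm6166 are uncertain, since 92.7% and 78.1% of their 31-base stretches occur in other genes. Among them Cx3cl1, Adcy5, Olfm2 and Smoc1 were named after their values were seen. Cx3cl1, a membrane-bound chemokine of endothelium, went from 12.6 and 16 CPM in the Day 3 libraries to 81.2 and 78.6 CPM at Day 7, a log2 fold change of 2.48 ± 0.2 (SE). Adcy5, an adenylyl cyclase, went from 2.07 and 3.32 to 18.6 and 22.2 CPM (log2 fold change 2.9 ± 0.25). The secreted glycoprotein gene Olfm2 stood at 0.557 and 0.517 CPM and then at 6.37 and 5.49 CPM, and the basement membrane calcium-binding protein gene Smoc1 at 16.7 and 20.9 and then 51.1 and 45.4 CPM. In these 4 genes the Day 7 libraries lay close to each other and at least 2-fold above both Day 3 libraries. Cx3cl1, Olfm2 and Smoc1 also rose in control cells, to 36 and 30.4 CPM of Cx3cl1, 0.73 and 0.442 CPM of Olfm2 and 11.9 and 12.3 CPM of Smoc1 at Day 7.

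The basement membrane collagens of the alpha3 and alpha4 type were among the genes called higher without any 1 library. Col4a3 (chr1:82586921-82722059, plus strand) and Col4a4 (chr1:82448423-82586849, minus strand; mm10, GENCODE M21) are neighbours that are transcribed away from each other and encode chains of one type IV collagen. Col4a3 stood at 2.33 and 2.28 CPM at Day 3 and at 24.2 and 42.4 CPM at Day 7, a rise of 14.4-fold (log2 fold change 3.85 ± 0.27, adjusted p = 0.000996). Col4a4 went from 4.5 and 5.17 to 41.9 and 59.8 CPM, 10.5-fold (log2 fold change 3.39 ± 0.28, adjusted p = 0.00147). Both remained below the control cultures, which held 157 and 149 CPM of Col4a3 and 257 and 190.0 CPM of Col4a4 at Day 7 after rises of their own (log2 fold change 1.74 and 1.5). Lamc3, a laminin gamma chain, was nearly absent at Day 3 with 0.202 and 0.603 CPM and reached 12.9 and 35.6 CPM at Day 7 (57.4-fold, adjusted p = 0.00815), about the level of the control libraries on that day (38.1 and 34.4 CPM). Lamc3 was not called without either Day 3 library. The common chains did not pass the test. Col4a1 stood at 14467 and 17553 CPM and then 25214 and 27126 CPM (adjusted p = 0.123), and Col4a2 at 7959 and 9481 and then 14801 and 17088 CPM (adjusted p = 0.0593). Agrn, the heparan sulfate proteoglycan agrin, was the called member of the 18 tested basement membrane genes, with 119 and 137 CPM at Day 3 and 265 and 256 CPM at Day 7, and it was called without Day 7 replicate 1 and not without any 1 of the other 3 libraries.

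Ltbp4, Eln and Fmod, genes of the elastic and fibrillar matrix, rose as well. Ltbp4, which binds latent TGF-beta and guides elastic fibre assembly, rose 5.79-fold from 447 and 471 CPM to 2865 and 2449.9 CPM (log2 fold change 2.53 ± 0.2, adjusted p = 0.00147), above the 986 and 1382 CPM of control Day 7. Eln, elastin itself, rose from 269 and 271 to 982 and 765 CPM and stood at 311 and 441 CPM in the Day 7 controls, where its log2 fold change was 0.59 (adjusted p = 0.104). Fmod, a small proteoglycan that binds collagen fibrils, went from 0.86 and 1.38 to 15 and 15.2 CPM (adjusted p = 0.00147). Of the 34 interstitial matrix genes, Eln and Fmod were the 2 called, and the list median was 0.37, with 0.226 to 0.635 when 1 library was left out. Col10a1, a short-chain collagen known from hypertrophic cartilage, was at or below 3 counts in both Day 3 libraries and reached 5.18 and 4.31 CPM at Day 7. The Day 7 mean was 33.8-fold above that floor (fitted log2 fold change 5.04), and Col10a1 stood at 46 and 28.1 CPM at 4 weeks. It lies on the strand opposite Nt5dc1. Control libraries of both days held at most 0.327 CPM of it. Myh11, the smooth muscle myosin heavy chain, went from 4.55 and 8.45 to 39.6 and 32.7 CPM while control libraries stayed between 8.33 and 11.1 CPM, and it was the risen member of 18 contractile genes, of which Csrp1, an actin-bundling LIM protein, fell from 334 and 311 to 201 and 167 CPM. Without Day 3 replicate 1 neither Myh11, Eln nor Col10a1 was called, and without Day 3 replicate 2 Myh11 was called and the other 2 were not. Csrp1 was called without Day 7 replicate 1 and not without any 1 of the other 3 libraries.

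The TGF-beta and BMP list held 8 risen genes of 32 tested (25%, against 2.04% of all genes), no fallen gene, and a median of 0.46. By role these were the ligands Tgfb2, Bmp2 and Bmp6, the receptor Tgfbr2, the latent ligand binders Ltbp3 and Ltbp4, the inhibitory Smad6 and the BMP target Id1. Smad6, which blocks receptor signalling, went from 86 and 82 CPM at Day 3 to 197 and 191 CPM at Day 7 (2.31-fold, adjusted p = 0.0148). Bmp6 stood at 195 and 171 CPM and then at 362 and 319.5 CPM, against 131 and 150.5 CPM in the Day 7 controls. Tgfbr2, the type II receptor, went from 129.8 and 129 to 262 and 232 CPM, and Id1 from 63.3 and 54.5 to 119.5 and 109 CPM. In all 4 of these genes the Day 7 libraries lay close together. Tgfb2 differed more between libraries, with 126 and 88.6 CPM at Day 3 and 333 and 219.7 CPM at Day 7, and its change in control cells, which held 81 and 59.4 CPM at Day 7, did not pass the test (log2 fold change 0.16, adjusted p = 0.774). The control arm had 11 risen and 2 fallen genes of the same 32. Without Day 3 replicate 1 or replicate 2 the list held 1 risen gene, without Day 7 replicate 1 it held 4 and 1 fallen gene, and without Day 7 replicate 2 it held 2, while the median lay between 0.43 and 0.53.

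Among vascular genes the rises were few and named. Sema3g, a secreted semaphorin of arterial endothelium (chr14:31217860-31230352, plus strand), went from 19.7 and 9.35 CPM in the Day 3 libraries to 201 and 65.8 CPM at Day 7 and 785 and 877 CPM at 4 weeks. The rise by Day 7 was 9.23-fold (log2 fold change 3.21 ± 0.5, adjusted p = 0.0193), and control libraries of both days held at most 0.362 CPM. Gja4, the gap junction protein connexin 37 (chr4:127311421-127314039, minus strand), went from 9.16 and 9.05 to 84.3 and 42.3 CPM (6.96-fold, adjusted p = 0.0354), but it also stood at 12.1 and 35.6 CPM in the Day 7 controls, where the log2 fold change was 2 (adjusted p = 0.0567). For both genes the Day 7 replicates were unequal, with replicate 1 above replicate 2. These were the 2 called of 20 arterial genes (10%, against 2.04% of all genes). The median of all 20 was 0.51, with 0.808 without Day 3 replicate 1 and 0.275 without Day 7 replicate 1. The DESeq2 Wald test called 6 of them higher, and leaving out 1 library gave 0 without either Day 3 library, 1 without Day 7 replicate 1 and 3 without Day 7 replicate 2. Sema3g was called without either Day 7 library and not without either Day 3 library, and Gja4 was not called without any 1 of the 4.

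The 250 bases before the start of Sema3g and Gja4 are shown because they are the 2 arterial genes that rose. Capitals mark the letters GGAA or TTCC, the core that ETS factors are known to bind, read on either strand. That core is common, since 94.2% of the 11214 tested genes with a RefSeq promoter (GRCm38.p6) hold it in this window. The longer letters CCGGAAG or CTTCCGG stood in 14.4% of all these promoters, in 4.68% of the 235 risen genes with a promoter and in 19.8% of the 162 fallen ones, and the SOX letters ACAATG or CATTGT in 7.98%, 10.2% and 8.02%. None of the 18 arterial and 15 endothelial core genes with a promoter held the longer ETS letters. A match is a description of the window and not a bound site.
Sema3g, chr14:31217623-31217872, plus strand: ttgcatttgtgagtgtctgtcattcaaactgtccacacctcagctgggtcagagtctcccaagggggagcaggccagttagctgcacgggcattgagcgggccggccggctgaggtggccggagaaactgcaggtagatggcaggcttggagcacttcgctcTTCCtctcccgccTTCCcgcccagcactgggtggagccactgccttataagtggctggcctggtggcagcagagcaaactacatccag
Gja4, chr4:127314040-127314289, minus strand: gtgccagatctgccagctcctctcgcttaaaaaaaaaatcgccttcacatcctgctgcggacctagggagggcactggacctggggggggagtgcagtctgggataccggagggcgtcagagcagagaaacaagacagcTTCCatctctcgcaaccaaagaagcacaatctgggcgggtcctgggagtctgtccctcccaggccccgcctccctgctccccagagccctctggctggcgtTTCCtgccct

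Most other arterial and Notch genes were higher in the Day 7 libraries without passing the test. Of the 20 arterial genes 19 had a positive change. Gja5, connexin 40, stood at 52.1 and 13.2 CPM at Day 3 and 155 and 29 CPM at Day 7 (adjusted p = 0.252). Dll4, the arterial Notch ligand, stood at 1.57 and 0.905 CPM and then at 17 and 1.36 CPM (adjusted p = 0.123), so that its level at Day 7 was carried by replicate 1 alone. Hey1, a Notch target, stood at 6.78 and 3.53 and then 28.8 and 8.61 CPM (adjusted p = 0.0804), and Cxcr4, a chemokine receptor of tip and arterial cells, at 2.33 and 1.42 and then 3.39 and 2.02 CPM. In Gja5, Dll4 and Cxcr4 the lower Day 7 library lay within the range of the Day 3 libraries. No Notch pathway gene of 19 was called, with a median of 0.47, but the DESeq2 Wald test called 7 higher, 2 were called higher without Day 7 replicate 2, and the median was 0.196 without Day 7 replicate 1. Among its members were Jag1, a ligand, with 503 and 395 CPM at Day 3 and 541 and 322 CPM at Day 7, and Notch3, a receptor of mural cells, with 163 and 270.2 and then 491 and 427 CPM (adjusted p = 0.0527).

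Of the 24 endothelial core genes 2 rose, Clec14a and Cd34 (8.33%, against 2.04% of all genes). The median was 0.14, with 12 genes above and 12 below 0. That median was 0.508 without Day 3 replicate 1, 0.371 without Day 3 replicate 2 and 0.0817 without Day 7 replicate 1. Clec14a, a lectin of vessel walls, went from 2.88 and 3.23 to 8.55 and 10 CPM and Cd34, a sialomucin of endothelium and of fibroblast progenitors, from 8.55 and 13.3 to 29.5 and 72.1 CPM. Both also rose in control cells, to 9.1 and 11.9 CPM of Clec14a and 184 and 194 CPM of Cd34. The defining junction genes did not pass. Pecam1 stood at 23.6 and 23 CPM at Day 3 and 57.5 and 33.6 CPM at Day 7 (log2 fold change 0.97 ± 0.37, adjusted p = 0.161), and Cdh5, VE-cadherin, at 208 and 148 and then 400.1 and 248 CPM (log2 fold change 0.86 ± 1.04, adjusted p = 0.658). In both genes both Day 7 libraries lay above both Day 3 libraries, and the SE draws on the spread in all 12 libraries. Vwf, the von Willebrand factor of mature endothelium, stood at 0.962 and 2.15 and then 4.96 and 6.33 CPM, and reached 67.9 and 47.9 CPM at 4 weeks. Kdr, the main VEGF receptor, stood at 106 and 42.3 CPM at Day 3 and 69.7 and 46.1 CPM at Day 7, and Tek, the angiopoietin receptor, at 11.6 and 10.5 and then 9.54 and 10.5 CPM. The 2 core genes that rose were called without Day 7 replicate 1 and not without any 1 of the other 3 libraries.

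Of 21 endothelial transcription factors 4 rose (19%, against 2.04% of all genes), with a median of 0.56 over the list, 0.33 without Day 7 replicate 1 and 0.763 without Day 3 replicate 1. Bcl6b, a repressor found in endothelium, went from 3.69 and 3.45 to 12.8 and 15.2 CPM (3.92-fold, adjusted p = 0.0395) and was at most 1.02 CPM in control cells of both days. Epas1, the hypoxia-inducible factor of endothelium, rose from 348 and 414 to 1025 and 1037 CPM, Sox13 from 25.1 and 22.1 to 45.2 and 41 CPM and Foxo1, which restrains endothelial growth, from 25.7 and 28.1 to 48.7 and 43.9 CPM. In all 4 both Day 7 libraries lay above both Day 3 libraries. None of the 4 was called without any 1 of the 4 Sox17-Erg libraries. Prox1, the lymphatic regulator, was the 1 called of 9 tested genes of the venous and lymphatic list, at 4.76 and 3.4 CPM and then 13.8 and 9.1 CPM, and it too was not called without any 1 of the 4 libraries.

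Pdgfb, the ligand by which endothelium recruits mural cells, was named after its values were seen and went from 50.5 and 19.9 CPM at Day 3 to 149 and 129 CPM at Day 7 (adjusted p = 0.0268), against at most 1.06 CPM in control cells of both days. Of 26 vascular guidance genes 2 rose, Slit3 and Sema3g (7.69%, against 2.04% of all genes), with a median of 0.34. Slit3, a guidance ligand, rose from 79.8 and 82.2 to 246 and 234 CPM and also rose in control cells, to 109.9 and 185 CPM. Sost, a secreted Wnt antagonist, went from 5.72 and 3.06 to 37 and 32.4 CPM and was listed at 0 in all 4 control libraries of these days. With the receptors Fzd1 and Fzd8 it made up the 3 risen genes of 27 on the Wnt list (11.1%, against 2.04% of all genes), with 3 risen and 1 fallen in control cells. The gene list of the third single-cell cluster of Sox17-Erg cells, which the study chose on its own cells, held 4 risen genes of 10 (40%, against 2.04% of all genes), Cdh13, Tgfb2, Nav2 and Plcl1, with 2 risen and 1 fallen in control cells. The lists of the second and the fourth cluster held 1 risen gene of 10 each. Cdh13, a cadherin anchored in the membrane without a cytoplasmic tail, went from 46.8 and 39.6 to 159 and 148 CPM (adjusted p = 0.0148) with 20.7 and 20.5 CPM in the Day 7 controls. Nav2, a microtubule-associated protein, went from 117 and 78.2 to 272 and 204 CPM. Sost, Slit3 and Nav2 were not called without any 1 of the 4 libraries, Cdh13 was called without either Day 7 library and not without either Day 3 library, and Pdgfb was called without replicate 1 of either day. The list of the third cluster held 0 risen genes without either Day 3 library and 1 without either Day 7 library, and the Wnt list held 4 without Day 7 replicate 1 and 0 without any 1 of the other 3.

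**Figure D2:**
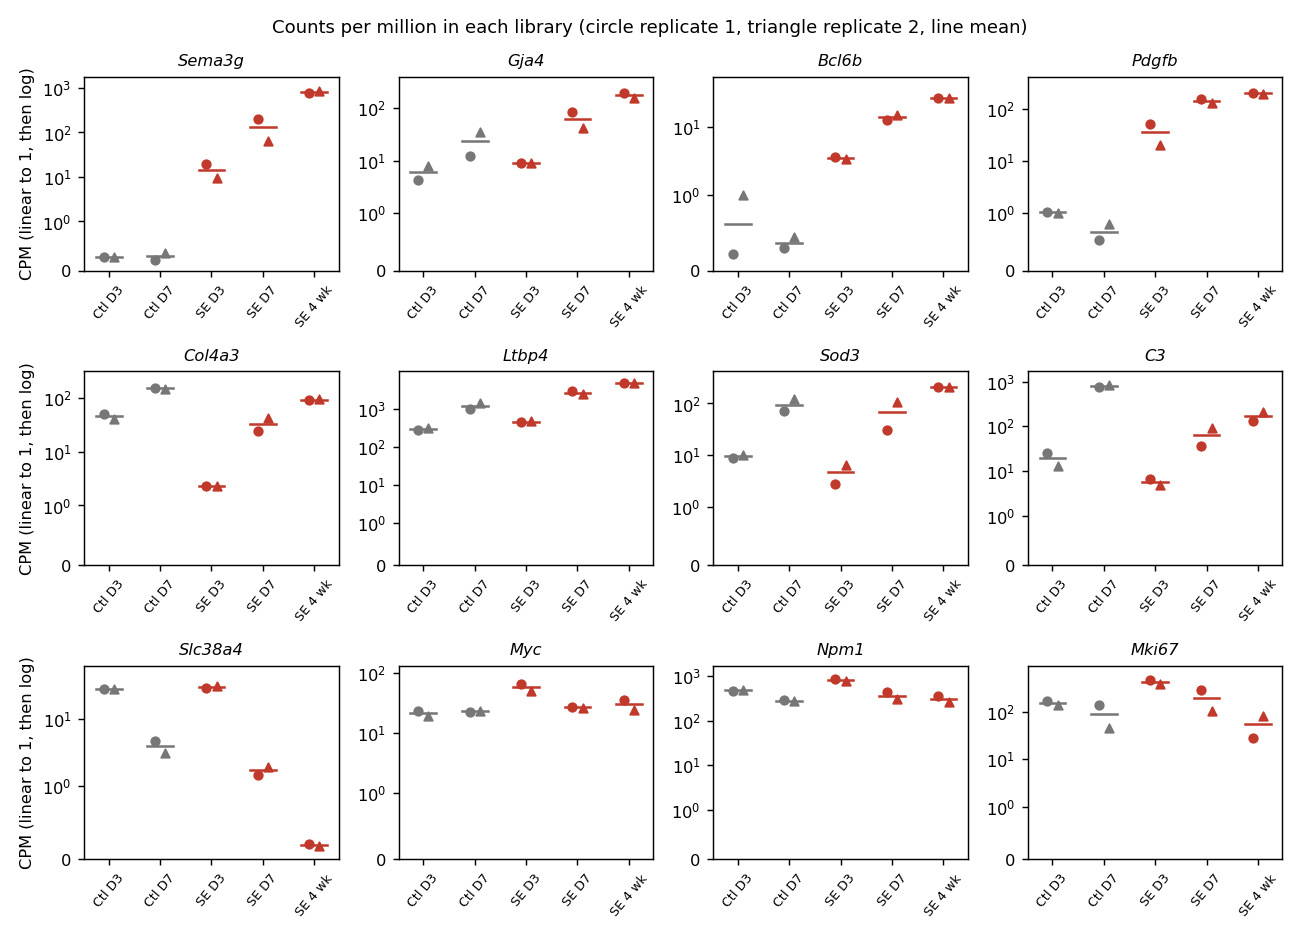
CPM of 12 genes in each library (vertical axes, linear up to 1 CPM and logarithmic above), with control groups (Ctl) of Day 3 and Day 7 in grey, Sox17-Erg groups (SE) of Day 3, Day 7 and 4 weeks in red, circles for replicate 1, triangles for replicate 2 and lines for the mean of 2. Sema3g, Bcl6b and Pdgfb rose at Day 7 from a level that control cells did not reach, Sod3 and C3 rose in both arms, Slc38a4 fell in both arms, and Mki67 was unequal between the Day 7 replicates.

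Part of the rises was shared with the control fibroblasts. Of the 317 risen genes 157 also rose in the control cells over the same days (49.5%), out of 729 that rose there (4.7% of all genes). The complement list held 5 risen genes of 12, with a median of 2.23 against -0.000702 over all genes, and 10 of 12 rose in control cells. C3, the central complement component, went from 6.63 and 4.91 CPM at Day 3 to 36.9 and 91.4 CPM at Day 7 (11.1-fold, adjusted p = 0.0148), while control cells reached 741 and 846 CPM. The classical pathway proteases rose as well, C1s1 from 4.4 and 5.04 to 20.7 and 38.1 CPM and C1ra from 5.72 and 10.9 to 23.3 and 54.3 CPM. In C1s1 33.5% and in C1ra 59.3% of the 31-base stretches of their transcripts also occur in other genes, so their counts are uncertain. For each of these genes Day 7 replicate 2 was higher than replicate 1. The complement list held 0 risen genes without either Day 3 library, 8 without Day 7 replicate 1 and 2, with a median of 1.42, without Day 7 replicate 2.

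Slc38a5, a glutamine transporter, rose from 2.78 and 9.61 CPM at Day 3 to 32.4 and 213 CPM at Day 7 (19.6-fold, adjusted p = 0.0404), and Adamtsl2, which binds microfibrils, from 14.9 and 34 to 153 and 647 CPM. Sod3, the extracellular superoxide dismutase, went from 2.78 and 6.68 to 30.9 and 107 CPM (adjusted p = 0.0233). In all 3 genes the Day 7 replicates differed by more than 3-fold with replicate 2 higher, and the control cells rose too, to 770.4 and 1332 CPM of Slc38a5, 1511 and 2396 CPM of Adamtsl2 and 70.8 and 120.0 CPM of Sod3. Of the 23 fibroblast identity genes, Tcf21 and Pdgfra were unequal between replicates in the same order, with 15 and 46.6 and then 48.2 and 174 CPM of Tcf21 and 114 and 292 and then 198 and 612 CPM of Pdgfra, and their part in these rises was not tested. The summed level of the 23 genes differed less between replicates, at 14698 and 18830.4 CPM at Day 3 and 12822 and 15938 CPM at Day 7, and Col1a1 was lower in Day 7 replicate 2 than in replicate 1. None of Slc38a5, Adamtsl2 and Sod3 was called without Day 7 replicate 2 or without either Day 3 library, and all 3 were called without Day 7 replicate 1.

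Hp and Lrg1, both secreted proteins, were among the genes with the largest rises. Hp, haptoglobin, held at most 3 counts in both Day 3 libraries and reached 1.35 and 8.17 CPM at Day 7, a mean 33.9-fold above that floor. Lrg1, a leucine-rich glycoprotein, was also within the floor at Day 3 and reached 1.24 and 6.24 CPM, a mean 26.6-fold above it. Control cells reached 94.7 and 60.3 CPM of Hp and 4.88 and 8.64 CPM of Lrg1 at Day 7. Without any 1 Sox17-Erg library other than Day 7 replicate 1, Hp and Lrg1 were not called. Of 37 interferon response genes 1 rose, Gbp2, a guanylate-binding protein, from 5.21 and 7.8 to 15.2 and 17.8 CPM (2.7%, against 2.04% of all genes), whereas 11 rose in control cells, where 4.7% of all genes rose, and the medians were 0.17 and 1.35. No gene of that list was called for a difference between the arms. The interferon median turned to -0.154 without Day 3 replicate 1 and to -0.0157 without Day 7 replicate 2, the 2 settings in which Gbp2 was not called, and stood at 0.65 without Day 3 replicate 2. The insulin-like growth factor axis held 2 risen genes of 13, the binding proteins Igfbp6, from 29.4 and 27.3 to 78.7 and 122 CPM, and Igfbp7, from 1069.9 and 1694 to 3112 and 3949.5 CPM, both called without Day 7 replicate 1 and not without any 1 of the other 3 libraries.

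**Figure D3:**
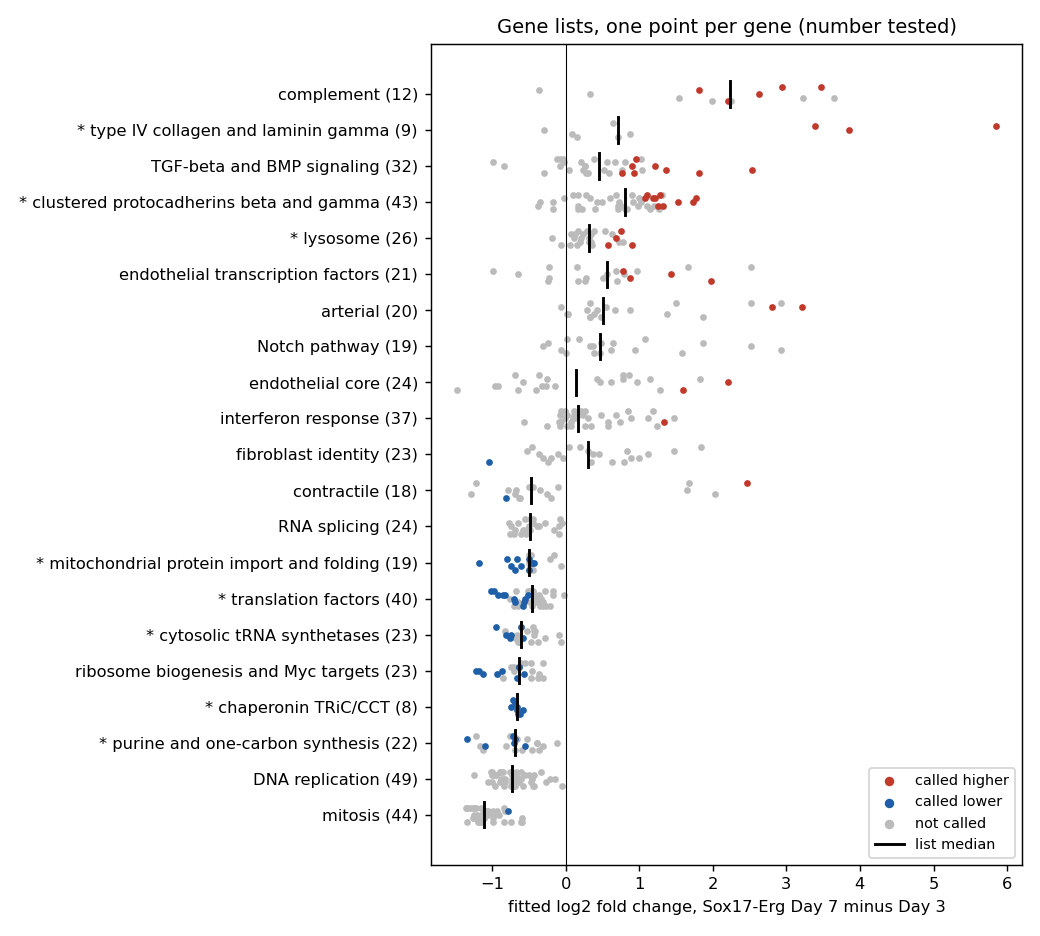
Fitted log2 fold change from Day 3 to Day 7 in the Sox17-Erg libraries (horizontal axis) for each tested gene of 21 lists, with the number tested in brackets, risen genes in red, fallen genes in blue and the list median as a black bar; an asterisk marks lists chosen after the values were seen. The 8 chaperonin genes sit between -0.74 and -0.58 and were all called, while the 44 mitosis genes lie further down, with a median of -1.11, and 1 was called.

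Growth genes were among those that fell. The list of ribosome biogenesis genes and Myc targets held 9 fallen genes of 23 (39.1%, against 1.38% of all genes), no risen gene, and a negative change in all 23, with a median of -0.63. Myc itself, a transcription factor of cell growth (chr15:61985391-61990374, plus strand), fell from 66.7 and 50.5 CPM at Day 3 to 27.6 and 26.1 CPM at Day 7 (log2 fold change -1.13 ± 0.21, adjusted p = 0.0327). In control cells Myc stood at 23.2 and 19.2 CPM at Day 3 and 22.2 and 23.6 CPM at Day 7, so the Day 3 Sox17-Erg libraries lay above all control libraries and the Day 7 libraries close above them. Dkc1, the pseudouridine synthase of ribosomal RNA, fell from 37.5 and 30.4 to 16.1 and 12.9 CPM (adjusted p = 0.0205). The nucleolar proteins Npm1, from 858 and 794 to 428 and 303 CPM, and Ncl, from 731 and 690.3 to 444 and 339 CPM, fell alongside, and 29.2% of the 31-base stretches of Npm1 also occur in other genes. The remaining fallen members were Nop58, Nolc1, Mybbp1a, Odc1 and Utp20, with log2 fold changes between -0.93 and -0.57, and 31.3% of the 31-base stretches of Odc1 occur in other genes. In the control arm 1 of the 23 fell and the median was -0.30, and no member was called for a difference between the arms. Myc was not called without any 1 of the 4 libraries. Without Day 7 replicate 1 there were 6 fallen members, and without any 1 of the other 3 libraries there was none, with medians between -0.79 and -0.45.

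All 8 subunits of the cytosolic chaperonin TRiC/CCT, which folds actin and tubulin, fell. This list and the next 4 were chosen after the values were seen. The changes lay between -0.74 (Tcp1) and -0.58 (Cct8) with a median of -0.66. Cct4 stood at 270.4 and 271 CPM at Day 3 and 187 and 155 CPM at Day 7 (adjusted p = 0.0248), and Cct5 at 328 and 316 and then 221 and 179.8 CPM. Control cells held 215 and 232 and then 158 and 149 CPM of Cct4, and 4 of the 8 subunits fell there, with a median of -0.48. The 8 calls were kept without Day 7 replicate 1, and none was made without any 1 of the other 3 libraries, where the median lay between -0.685 and -0.492.

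On each of 4 further lists a larger share fell than the 1.38% of all genes. In control cells, where 4.06% of all genes fell, 8 transfer RNA synthetase, 7 translation factor, 4 mitochondrial import and 6 purine synthesis genes fell. Of 23 genes of cytosolic transfer RNA synthetases and their partners 6 fell, Gars, Rars, Eprs, Kars, Dars and Aimp1, and all 23 changes were negative. Gars, the glycyl-tRNA synthetase, fell from 218 and 246 to 140.1 and 102 CPM and Rars, the arginyl-tRNA synthetase, from 107 and 106 to 59.7 and 61.1 CPM. Of 40 translation factors 11 fell and all 40 changes were negative, with a median of -0.45. The elongation factor subunit Eef1g fell from 990.1 and 1107 to 625 and 442 CPM and Pabpc4, a poly(A)-binding protein, from 268 and 262 to 145 and 118 CPM, although 47.6% and 62.9% of their 31-base stretches occur in other genes. Of 19 mitochondrial import and folding genes 10 fell, among them the mitochondrial chaperonin pair of Hspd1, from 415 and 358 to 202 and 139 CPM, and Hspe1, from 121 and 107 to 75.2 and 55.1 CPM, although 50.1% and 24.8% of their 31-base stretches occur in other genes. The purine and one-carbon synthesis list held 6 fallen genes of 22, including the serine synthesis enzyme Psat1, from 68.5 and 65 to 33.9 and 18.6 CPM, and the mitochondrial Shmt2, from 81.4 and 84.5 to 46.2 and 31.4 CPM. Without either Day 3 library or without Day 7 replicate 2 none of these 4 lists held a fallen gene, and without Day 7 replicate 1 they held 5, 11, 6 and 9.

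The windows before the starts of Cct2 and Pmpcb, the beta subunit of the mitochondrial processing peptidase, are shown as examples of fallen genes with the longer ETS letters, in capitals. Those letters stood in 44.4% of 18 mitochondrial import and folding genes, 33.3% of 15 transfer RNA synthetase genes and 28.6% of 7 chaperonin genes with a promoter, beside the 14.4% of all promoters. The shares were 16.7% of 18 genes on the ribosome biogenesis list and 19.4% of 36 mitosis genes. The E-box CACGTG, the letters that Myc is known to bind, stood in 9.41% of all promoters, 10.5% of those of fallen genes and 5.56% of those on the ribosome biogenesis list. It stood in 20% of the transfer RNA synthetase promoters, 16.7% of the mitochondrial import and folding promoters and 0% of the 7 chaperonin promoters.
Cct2, chr10:117063853-117064102, minus strand: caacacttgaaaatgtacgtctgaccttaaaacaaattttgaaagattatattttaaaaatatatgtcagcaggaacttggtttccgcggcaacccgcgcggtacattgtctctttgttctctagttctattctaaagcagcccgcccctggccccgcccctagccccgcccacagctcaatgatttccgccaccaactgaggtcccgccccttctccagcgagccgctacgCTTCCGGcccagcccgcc
Pmpcb, chr5:21736910-21737159, plus strand: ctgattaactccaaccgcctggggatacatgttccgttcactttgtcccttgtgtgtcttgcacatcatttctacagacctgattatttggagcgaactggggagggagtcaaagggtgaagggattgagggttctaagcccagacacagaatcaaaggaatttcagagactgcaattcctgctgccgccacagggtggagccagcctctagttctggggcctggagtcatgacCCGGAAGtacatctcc

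In the cell cycle lists every change was negative and the spread between libraries left all but 1 gene uncalled in edgeR's test. All 44 mitosis genes had a negative change, with a median of -1.11, and the condensin subunit gene Smc4 was the 1 called, from 205 and 204 to 134 and 104 CPM (adjusted p = 0.0312). The mitosis median was -1.91 without Day 7 replicate 1 and -0.586 without Day 7 replicate 2, and Smc4 was called without the former and not without any 1 of the other 3 libraries. All 49 DNA replication genes had a negative change, with a median of -0.72. None was called in edgeR's test, whereas the DESeq2 Wald test called 4 lower. The median was -1.16 without Day 7 replicate 1 and -0.366 without Day 7 replicate 2. Mki67, the proliferation antigen, stood at 467 and 383 CPM at Day 3 and at 287 and 105 CPM at Day 7 (adjusted p = 0.308). Cdk1, the mitotic kinase, stood at 92 and 78.2 and then 62.9 and 28 CPM, Ccnb1, its cyclin partner, at 81.6 and 64.8 and then 44.6 and 16.7 CPM, and Mcm5, a helicase subunit of replication origins, at 56.1 and 36.8 and then 33.6 and 14.1 CPM. Day 7 replicate 2 was lower than replicate 1 by more than 2-fold in each of these 4 genes. The summed mitosis level was 3464 and 2894 CPM at Day 3, 2162 and 932 CPM at Day 7 and 352 and 718 CPM at 4 weeks. Control cells showed the same order between Day 7 replicates, with 1424 and 566 CPM. Of 24 splicing genes, all with a negative change and a median of -0.49, none was called in edgeR's test and 5 were called lower by the DESeq2 Wald test. Their median was -0.78 without Day 7 replicate 1 and -0.237 without Day 7 replicate 2. Of 20 genes of arrest and p53 response 2 rose, Gadd45a, from 42.2 and 49.9 to 70 and 89.2 CPM, and Gadd45b, from 14.5 and 11.8 to 23.5 and 28.4 CPM, both stress-induced growth inhibitors. Both were called without Day 7 replicate 1, where the list held 3, and neither without any 1 of the other 3 libraries. Cdkn1c, the inhibitor p57, stood at 34.2 and 67 and then 89.7 and 156 CPM (adjusted p = 0.0688).

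Windows before 3 cell cycle genes are shown with the letters CCAAT or ATTGG in capitals, the box bound by NF-Y. It stood in 72.2% of 36 mitosis genes with a promoter and in 40.3% of all promoters, 34.6% of those of fallen genes and 40.9% of those of risen genes. It also stood in 60% of 15 transfer RNA synthetase promoters, 57.1% of 7 chaperonin promoters, 38.9% of 18 mitochondrial import and folding promoters and 22.2% of 18 on the ribosome biogenesis list. Cdc20, an activator of the anaphase-promoting complex, is shown beside Mki67 and Cdk1.
Cdc20, chr4:118437344-118437593, minus strand: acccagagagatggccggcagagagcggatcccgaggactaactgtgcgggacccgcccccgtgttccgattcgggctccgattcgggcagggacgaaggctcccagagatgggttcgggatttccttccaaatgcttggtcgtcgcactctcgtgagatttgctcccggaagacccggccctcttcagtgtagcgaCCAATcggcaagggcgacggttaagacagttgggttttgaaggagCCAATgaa
Mki67, chr7:135716380-135716629, minus strand: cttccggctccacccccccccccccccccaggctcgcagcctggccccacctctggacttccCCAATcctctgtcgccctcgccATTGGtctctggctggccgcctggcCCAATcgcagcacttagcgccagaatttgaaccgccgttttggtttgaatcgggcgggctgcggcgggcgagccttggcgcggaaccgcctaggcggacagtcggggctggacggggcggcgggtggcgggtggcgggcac
Cdk1, chr10:69352913-69353162, minus strand: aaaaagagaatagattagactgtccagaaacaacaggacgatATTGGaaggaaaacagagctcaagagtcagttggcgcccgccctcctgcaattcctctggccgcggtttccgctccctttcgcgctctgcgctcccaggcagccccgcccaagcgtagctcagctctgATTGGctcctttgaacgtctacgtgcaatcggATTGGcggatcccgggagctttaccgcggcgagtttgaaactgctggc

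**Figure D4:**
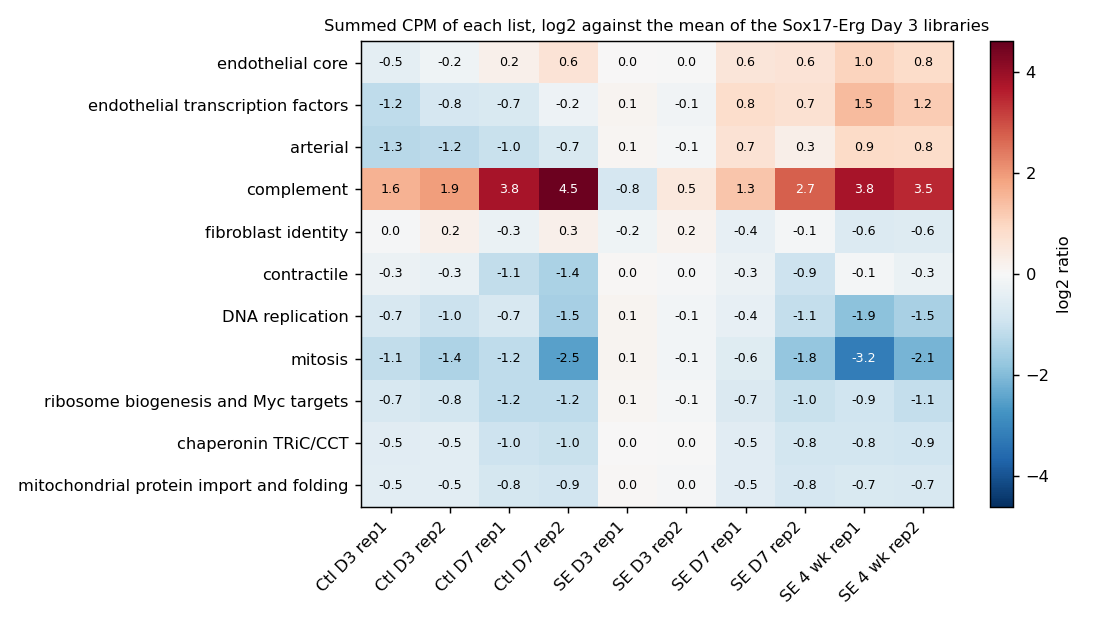
Summed CPM of 11 gene lists in each library, as the log2 ratio to the mean of the 2 Sox17-Erg Day 3 libraries (colour and number), for control (Ctl) libraries of Day 3 and Day 7 and Sox17-Erg (SE) libraries of Day 3, Day 7 and 4 weeks. At Day 7 the mitosis list stood at -0.556 in replicate 1 and -1.77 in replicate 2, whereas the chaperonin list stood at -0.509 and -0.843.

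Slc38a4, an amino acid transporter expressed in fetal tissues (chr15:96994820-97055956, minus strand), fell 18.5-fold from 30.1 and 32.2 CPM at Day 3 to 1.46 and 1.93 CPM at Day 7 (log2 fold change -4.21 ± 0.23, adjusted p = 0.000267), the smallest adjusted p of the comparison, and stood at 0.212 and 0.185 CPM at 4 weeks. Control cells went from 28.5 and 28.9 to 4.69 and 3.13 CPM. The receptor tyrosine kinase gene Ret fell from 10.1 and 17.8 to 1.35 and 0.747 CPM (13.1-fold, adjusted p = 0.0138), and Vgf, a secreted neuropeptide precursor, from 24.8 and 24.5 to 3.17 and 1.32 CPM (10.8-fold, adjusted p = 0.0233). Bcat1, a branched-chain aminotransferase, fell from 35 and 49.5 to 9.7 and 7.56 CPM (log2 fold change -2.29, against -2.28 in control cells). Hmga1, a chromatin protein of proliferating cells, fell from 276 and 260.2 to 80 and 43.2 CPM and its copy Hmga1b from 65.6 and 76.2 to 14.3 and 14.6 CPM, but 62.1% and 92.7% of their 31-base stretches are shared with other genes, so the split between them is uncertain. Ret was called without replicate 1 of either day and not without replicate 2 of either day, and Vgf, Bcat1 and Hmga1 were called without Day 7 replicate 1 and not without any 1 of the other 3 libraries.

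Of 23 tested matrix proteases and inhibitors Adam12 fell and Mmp2 rose, 17 changes were positive and the median was 0.40, with 0.791 without Day 7 replicate 1 and 0.0737 without Day 7 replicate 2. Adam12, a metalloprotease of activated mesenchyme, fell from 301 and 437 to 124 and 71.5 CPM (adjusted p = 0.0195), and Tll1, a procollagen protease outside that list, from 137 and 144 to 44.3 and 23.9 CPM. Mmp12, an elastase, went from 3.44 and 4.14 to 0.662 and 1.01 CPM. All 3 fell in control cells as well. Mmp2, a gelatinase, rose from 311 and 283 to 562 and 641 CPM. Aldh1a2, which makes retinoic acid, fell from 10.2 and 10.5 to 2.45 and 3.69 CPM, and Adcyap1r1, a neuropeptide receptor, from 11 and 11.4 to 2.73 and 3.34 CPM, while the control changes of both did not pass (adjusted p = 0.223 and 0.69). Fabp5, a fatty acid-binding protein, fell from 325 and 381 to 124 and 121 CPM. Of 23 fibroblast identity genes only Mfap5, a microfibril protein, was called, from 25.5 and 29.5 to 13 and 13.8 CPM, and 14 of the 23 changes were positive, with a median of 0.30 that lay between 0.026 and 0.202 when 1 library was left out. Thy1, the selection marker, stood at 166 and 289 CPM at Day 3 and 245 and 332 CPM at Day 7 (adjusted p = 0.44), Col1a1, the main fibrillar collagen, at 11941 and 19233 and then 16240.5 and 14317 CPM, and Acta2, smooth muscle actin, at 3085 and 3021 and then 2763 and 1224 CPM (adjusted p = 0.493). Without Day 7 replicate 1 Adam12, Tll1, Fabp5 and Mmp2 kept the call, and without any 1 of the other 3 libraries neither these 4 nor Mmp12, Aldh1a2, Adcyap1r1 and Mfap5 did.

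Few changes were shown to differ from those of the control fibroblasts. Of the 214 fallen genes 103 also fell in control cells (48.1%), where 629 genes fell in all (4.06%). A test of the difference between the arms called 13 genes (0.0838%), and in 10 of them a change was called in the control cells and none in the Sox17-Erg cells. The macrophage markers moved in the same control libraries, from 466 and 313 CPM at Day 3 to 1044 and 1613 CPM at Day 7, and the red blood cell markers from 0.546 and 0.277 to 31.9 and 22.5 CPM, and their part in the differences was not tested. Igfbp3, a binding protein of insulin-like growth factors, stood at 736 and 530.4 CPM at Day 3 and 852 and 858 CPM at Day 7, whereas control cells went from 18.1 and 26.4 to 311 and 719 CPM. Celf4, an RNA-binding protein, stood at 4.91 and 4.61 and then 4.6 and 5.45 CPM while control cells went from 4.66 and 4.58 to 31.4 and 27.9 CPM. Plec, the cytoskeletal linker plectin, stood at 645 and 656 and then 734 and 713 CPM and fell in control cells from 963 and 827 to 379 and 346 CPM. Pcyt1b, an enzyme of phosphatidylcholine synthesis, stood at 127 and 97.1 and then 140.2 and 128 CPM, against 11.6 and 13.1 and then 2.42 and 1.53 CPM in control cells. Among the 13, those that moved in opposite directions with a call in both arms were Mpp6, a membrane-associated scaffold protein, which fell from 72.7 and 73.9 to 41.9 and 38.3 CPM and rose in control cells from 62.3 and 52.7 to 153 and 131 CPM, and Capn6, a calpain without protease activity, which fell from 21.1 and 15.5 to 7.53 and 8.83 CPM and rose from 30.7 and 22.2 to 47 and 52 CPM. Magix rose from 17.7 and 13.8 to 50.6 and 47.9 CPM and stood at 2.04 and 1.06 and then 0.73 and 0.683 CPM in control cells. The difference itself was called in 1 gene without either Sox17-Erg Day 3 library, in 4 without Day 7 replicate 1, in 3 without Day 7 replicate 2, in 1 and 2 without control Day 3 replicate 1 and 2, and in 4 and 11 without control Day 7 replicate 1 and 2.

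**Figure D5:**
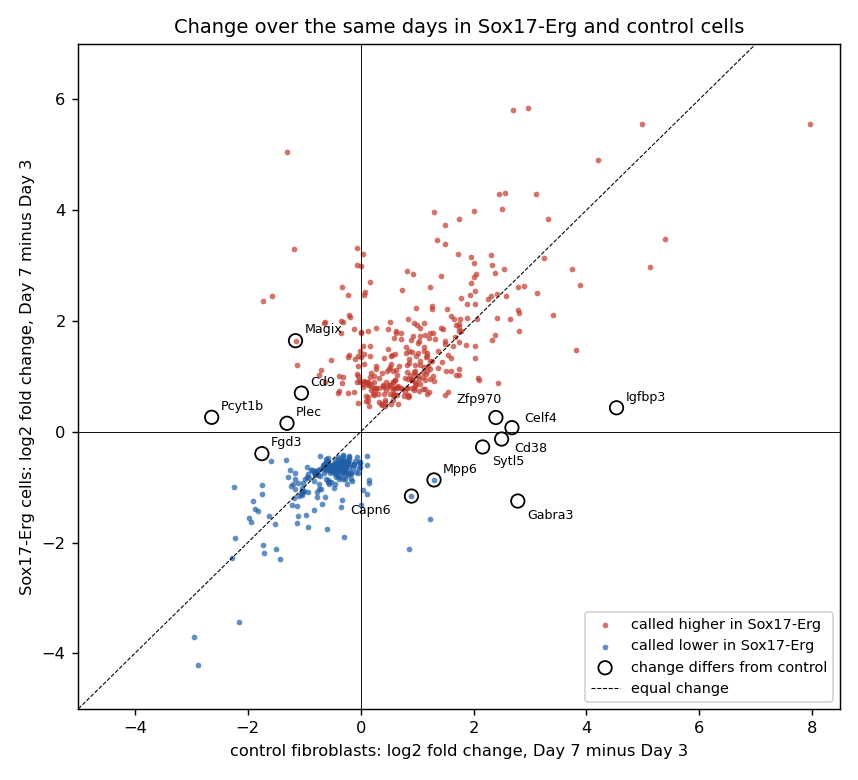
Fitted log2 fold change from Day 3 to Day 7 in Sox17-Erg cells (vertical axis) against that in control fibroblasts (horizontal axis) for genes that rose (red) or fell (blue) in Sox17-Erg cells, with the 13 genes whose change differed between the arms circled and named; 8 called genes lie outside the axes. Most risen genes lie to the right of 0 and most fallen genes to its left, while Celf4, Cd38, Zfp970, Sytl5 and Igfbp3 lie near 0 in Sox17-Erg cells and above 2 in control cells.

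The clustered protocadherins, neuronal-type adhesion proteins encoded in tandem, were a further list chosen after the values were seen. Of 43 tested beta and gamma genes 10 rose (23.3%, against 2.04% of all genes) and 38 changes were positive. The median was 0.81, close to the 0.74 of control cells, where 7 rose and 1 fell and 4.7% of all genes rose. Pcdhb21 stood at 0.962 and 1.12 CPM at Day 3 and 2.95 and 4 CPM at Day 7. The gamma genes share their last exons, and 46.1% to 63.9% of the 31-base stretches of Pcdhga5, Pcdhga6 and Pcdhgb1 occur in other genes, so the counts of single gamma genes are uncertain. Of 26 lysosome genes, chosen in the same way, 4 rose (15.4%), with Naglu, a heparan sulfate-degrading enzyme, at 31.1 and 38.4 and then 58.4 and 71.5 CPM. In control cells 6 of the 26 rose, and the median was 0.33, against 0.32 in Sox17-Erg cells. Without Day 3 replicate 1 or Day 7 replicate 2 no gene of either list was called, without Day 3 replicate 2 there were 1 and 0, and without Day 7 replicate 1 there were 8 and 4. The gene models Gm15725 and Gm48499, which were at 0 at Day 3 and between 2.43 and 13.8 CPM at Day 7, and Gm21293 and Gm38317, which fell to at most 0.0879 CPM, share 90.4% to 100% of their 31-base stretches with other genes, and their values are not read further.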

How the data were processed

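Bulk polyadenylated RNA was sequenced as paired 50-base reads (Kapa stranded kit, NovaSeq), and the 4 Sox17-Erg libraries of Day 3 and Day 7 were compared. Per the methods the reads were demultiplexed with bcl2fastq (version 2.20.0 in the submitters' processing notes), trimmed for high GC content with BBDuk and quantified with Salmon, and the notes name the build mm10. The Salmon version and the annotation are not given in the sources used here. The authors deposited 1 table of expected counts per gene (estimated counts that need not be whole), which were rounded to whole numbers. Such counts divide reads among similar transcripts by an estimate, so genes with near copies were marked by the share of their 31-base stretches found in other genes.

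Of 35727 genes, 15506 passed edgeR's filterByExpr (minimum count 10). All 12 libraries were fitted by group with TMM factors in edgeR 4.0.16 (R 4.3.3, limma 3.58.1) by glmQLFit and glmQLFTest, which left 6 residual degrees of freedom and 1 estimate of spread for all groups. Day 7 minus Day 3 in Sox17-Erg cells and its difference from the same contrast in control cells were tested, with Benjamini-Hochberg adjustment over all genes and a threshold of 0.05. The authors' own contrasts were control against reprogrammed samples with DESeq2. Library sums ran from 19011635 to 36835500 counts in the 4 libraries and from 19011635 to 41240449 in all 12, and floors cover counting error only. Replicates were not copies, since a chi-square test of their counts gave 25.1 per degree of freedom at Day 3 and 52.5 at Day 7. On simulated counts of 15145 genes, 39% of genes changed 2-fold and 86% of genes changed 4-fold were recovered for the change in Sox17-Erg cells, and 9% and 69% for the difference from control.

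The genes named were preset marker genes, the 15 largest changes in each direction with at least 1 CPM in both higher libraries, up to 4 called members of each list per direction (or the 2 most abundant where none was called), the genes called for the difference and genes switched on or off. Some genes that this rule names are not reported here. Named outside this rule, after their values were seen, were Adcy5, Cx3cl1, Olfm2, Smoc1, Pdgfb and other members of the lists. The comparison and its 42 lists were chosen with earlier results of these data known, and 8 further lists and the motifs after the values were seen. Promoter windows end at RefSeq starts (GRCm38.p6). Gene coordinates are from GENCODE M21, whose starts can differ. By those coordinates the windows of Sema3g, Pmpcb, Cdc20 and Cdk1 reach into the gene. The marked letters of Pmpcb and the last ones of Cdc20 lie in that overlap. Alternatives were DESeq2 1.42.0, its size factors, 2 other filters, the replicate block, fewer libraries, stricter thresholds and each library left out in turn.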

Additional observations from a re-analysis of the deposited data

Results flagged for a closer look

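For 13 genes the change from Day 3 to Day 7 differed between Sox17-Erg and control cells in a test of the difference itself (edgeR's quasi-likelihood test with Benjamini-Hochberg adjustment, 0.0838% of tested genes). The values are the log2 change in Sox17-Erg cells minus that in control cells. The difference was -2.61 for Celf4 (adjusted p = 0.00189), -2.17 for Mpp6 (adjusted p = 0.0112), -4.03 for Gabra3 (adjusted p = 0.016) and -2.63 for Cd38 (adjusted p = 0.0229). It was -2.44 for Sytl5, -4.1 for Igfbp3, -2.06 for Capn6 and -2.14 for Zfp970, whose counts are uncertain because 67.9% of its 31-base stretches occur in other genes. In the other direction it was 1.35 for Fgd3, 2.9 for Pcyt1b, 1.46 for Plec, 1.75 for Cd9 and 2.8 for Magix, with adjusted p-values from 0.0384 to 0.0431.

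Gabra3, a GABA receptor subunit, stood at 0.911 and 1.12 CPM at Day 3 and 0.414 and 0.439 CPM at Day 7 in Sox17-Erg cells and went from 0.546 and 0.462 to 3.57 and 3.46 CPM in control cells. Cd38, an NAD-consuming surface enzyme, stood at 27.8 and 23.4 and then 24.6 and 22.1 CPM, against 23.1 and 23.9 and then 147 and 118 CPM in control cells. Sytl5, a vesicle trafficking protein, stood at 17.3 and 17.5 and then 13.3 and 15.5 CPM, against 2.69 and 2.45 and then 9.18 and 13.9 CPM. Fgd3, an exchange factor for CDC42, stood at 70.7 and 62.6 and then 53.5 and 47.9 CPM and fell in control cells from 35 and 31.3 to 9.75 and 9.97 CPM. Cd9, a tetraspanin, stood at 55.5 and 67.8 and then 105 and 95.6 CPM and fell in control cells from 82.4 and 95.8 to 46.7 and 39.4 CPM.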

How the results depend on the processing

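The counts of genes depended on the processing, and the causes were not tested. Of 317 higher and 214 lower genes as reported, the DESeq2 Wald test gave 950 and 667, no filter on low counts gave 1107 and 739, an adjusted p under 0.01 gave 11 and 5, and a log2 fold change of at least 1 gave 209 and 57. A fit of the 4 Sox17-Erg libraries alone gave 3 and 3 (1552 and 1540 at an unadjusted p under 0.05). Leaving out 1 library gave 13 to 406 higher and 4 to 255 lower genes. Same-numbered libraries of the 2 days deviated together with a correlation of 0.219, and the labels do not say whether a number marks a shared culture. With the replicate block 460 genes were higher and 323 lower over 12 libraries, and 1324 and 1235 in the 4 Sox17-Erg libraries alone. The block called 44 of 44 mitosis genes lower in those 4 libraries and 1 of 44 over 12 libraries, and 37 and 0 of 49 DNA replication genes. Of 20 arterial genes it called 9 and 4 higher, and of 24 endothelial core genes 9 and 2 higher and 2 and 0 lower. It called 9 and 0 of 9 genes of the first single-cell cluster lower, and 12 and 1 of 24 splicing genes. Among 18 immediate early genes 9 and 1 were higher and 1 and 0 lower. A GC-content offset, chosen after seeing the data, gave 271 and 244.

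Of the 13 genes that differed from control, the DESeq2 Wald test gave 278, no filter gave 452, the 8 libraries of Day 3 and Day 7 alone gave 4, the GC-content offset gave 6, an adjusted p under 0.01 gave 1, the replicate block gave 17, and leaving out 1 library gave 1 to 11. No called gene of the 531 changed direction under any alternative in which it was tested. Some uncalled genes changed sign when 1 library was left out. Their log2 fold changes then ranged from -0.249 to 0.0354 for Cd38, -0.016 to 0.196 for Celf4, -0.293 to 0.356 for Col1a1, -0.171 to 2.84 for Gja5, -0.478 to 0.30 for Jag1, -0.872 to 0.494 for Kdr, -0.00238 to 1.83 for Pdgfra and -0.0687 to 0.551 for Zfp970. Col1a1 was also at 0.00891 with the replicate block in 4 libraries and Plec at -0.0631 with the GC-content offset. With 2 libraries per group, 39% of simulated 2-fold changes were recovered, so an uncalled gene is not shown to be unchanged.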

Other observations

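Several other lists held few called genes, although their medians were not all small. Among 18 immediate early genes none was called in edgeR's test and 15 changes were positive (median 0.80, and 0.464 without Day 7 replicate 1). The DESeq2 Wald test called 2 of these genes higher and 1 lower. None of 24 cholesterol synthesis genes was called in edgeR's test (median -0.39, 19 negative, between -0.753 and -0.0589 when 1 library was left out), nor any of 28 oxidative phosphorylation genes (median -0.26, 25 negative, and -0.155 without Day 7 replicate 2) or 13 genes of ERK feedback (median -0.03, of either sign when 1 library was left out). With the DESeq2 Wald test 3 oxidative phosphorylation genes and 1 ERK feedback gene were lower. The unfolded protein and amino acid response list held 1 higher and 2 lower genes of 19 (median -0.43, between -0.673 and -0.208 when 1 library was left out). The list of the first single-cell cluster of Sox17-Erg cells, chosen by the study, held no called gene of 9 in edgeR's test, all with negative changes (median -0.98, between -1.79 and -0.441 when 1 library was left out), and that of the fifth cluster none of 10 (median -0.50, and -0.149 without Day 7 replicate 2). By the DESeq2 Wald test 0 genes of the first list and 1 gene of the fifth were lower. The chemokine list held 1 higher gene of 21 in Sox17-Erg cells and 9 in control cells, the MHC class I list 1 of 11 and 4 in control cells, and the cell junction list 2 of 19 and 3 in control cells. Over all tested genes 2.04% rose in Sox17-Erg cells and 4.7% in control cells.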
